A study of Mus musculus with 12 samples.

Results

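Neuropilins and plexins are the cell-surface receptors of the semaphorins. The 10 genes described here are the neuropilins *Nrp1* and *Nrp2*, the plexins *Plxna1*, *Plxna2*, *Plxna3*, *Plxnb1*, *Plxnb2* and *Plxnd1*, and the semaphorins *Sema4d* and *Sema6a*, out of 42450 genes listed for each library. They were taken by gene symbol, and they were chosen by their family together with the levels that earlier work on these same 12 libraries had shown, so their levels and changes are given as a description and no p-value of theirs is given. The cells were E14tg2a.4, a mouse embryonic stem cell (mESC) line, grown with the cytokine LIF. They received 50 nM siRNA against *Srrm2*, which encodes a splicing-associated protein of nuclear speckles (Srrm2-KD), or against firefly luciferase, a gene that mouse cells lack (Gl2-KD). Cells were collected at 24 h, or were transfected again with the same siRNA and collected at 72 h. In the comparisons over time, longer culture and the second transfection therefore cannot be told apart. Every group therefore holds transfected wild-type cells of 1 line, and no untransfected cells are among them. Each of 3 independent experiments has both siRNAs and both times, which gives 4 groups of 3 libraries of polyA+ RNA, and the design asks what a transient loss of *Srrm2* does to gene expression early and late.

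Semaphorins are secreted or membrane-bound guidance proteins, first known from growing axons and later from blood vessels, the heart and the immune system. Most secreted semaphorins bind a neuropilin, which has almost no signalling part of its own and passes the signal through a class A plexin, whereas membrane-bound semaphorins usually bind plexins directly. The inner part of a plexin acts on small GTPases and, through them, on the cytoskeleton and on adhesion. Neuropilins also bind vascular endothelial growth factors (VEGF) beside the VEGF receptors.

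The libraries held 73933196 to 153343831 estimated counts each. *Srrm2* was lower with its siRNA in all 3 experiments, with log2 fold changes of -1.22 (SE 0.14) at 24 h and -1.16 (SE 0.14) at 72 h. All 8 mESC markers checked stood at 1 CPM (estimated counts per 1000000 of a library, scaled by TMM) or more in every library, with *Pou5f1* at 1149 to 1956 CPM. Of markers of other cells, 4 of 8 endothelial genes also stood at 1 CPM or more in every library, among them *Pecam1* at 39.3 to 83.7 CPM, while *Cdh5* and *Emcn* stayed at or below 0.0570 CPM. So did 5 of 8 neural genes, among them *Tubb3* at 25.9 to 119 CPM, with *Dcx* at most at 0.171 CPM. Of 6 trophoblast genes 3 did so, among them *Tfap2c* at 45.6 to 95.0 CPM, while *Cdx2* stayed at or below 0.209 CPM. Of 6 mesoderm genes 1 did so, *Eomes* at 1.96 to 5.79 CPM, and of 6 primitive endoderm genes 0. Of 6 fibroblast genes 1 did so, *Thy1* at 3.58 to 22.9 CPM, with *Dcn* and *Lum* at or below 0.0493 CPM. Whether any such cells were present was not tested, nor was their part in the levels below. The first principal component of the libraries, with 42.0% of the variance, set the 4 libraries of experiment 1 apart from the other 8, so changes are given with and without experiment 1 where this matters. In bulk RNA, fewer cells expressing a gene and less RNA per cell cannot be told apart.

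The promoters of both neuropilins are shown because *Nrp2* was among the highest of the family by level per length and *Nrp1* among the lowest. A link between promoter sequence and level was not tested. The RefSeq table of build GRCm38.p6 holds 8 of the 10 genes. Each window runs from 250 bases before to 50 bases after the annotated start, and capitals mark the GC box GGGCGG on either strand. *Nrp1* has its window at chr8:128358823-128359122 on the + strand, and *Nrp2* at chr1:62703067-62703366 on the + strand. In GENCODE M21 the *Nrp1* gene begins at chr8:128358604, so its whole window lies inside the gene. The *Nrp2* gene begins at chr1:62703285, inside its window. Relative to these gene starts, the windows therefore compare unlike positions.
Nrp1: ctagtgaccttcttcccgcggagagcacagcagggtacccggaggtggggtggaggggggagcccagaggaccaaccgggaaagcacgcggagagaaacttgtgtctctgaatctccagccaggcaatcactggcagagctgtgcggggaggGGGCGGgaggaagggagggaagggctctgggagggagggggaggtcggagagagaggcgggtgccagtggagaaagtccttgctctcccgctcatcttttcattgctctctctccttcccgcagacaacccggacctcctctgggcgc
Nrp2: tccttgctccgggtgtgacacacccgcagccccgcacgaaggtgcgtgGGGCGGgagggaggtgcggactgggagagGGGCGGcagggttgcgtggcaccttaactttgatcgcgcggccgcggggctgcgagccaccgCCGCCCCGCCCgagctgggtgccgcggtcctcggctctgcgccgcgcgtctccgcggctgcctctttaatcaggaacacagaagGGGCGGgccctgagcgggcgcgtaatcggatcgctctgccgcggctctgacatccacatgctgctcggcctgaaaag

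The *Nrp2* window is 70.7% G and C with 37 CG pairs, against 64.0% and 14 for *Nrp1*. Over the 32851 promoters of the table the median was 52.7% with 7 CG pairs. Counting both strands and overlapping matches, GGGCGG occurs 5 times in the *Nrp2* window and 1 time in the *Nrp1* window, and 35.7% of all promoters hold it. TATAAA, which 13.6% of all promoters hold, is in neither window. These matches are letters in a window, with no measurement of binding.

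The longest stretches that related receptors have in common are shown next, since Kallisto assigns a read to transcripts by the words of bases that it contains, by default of 31 bases. In the transcripts of GENCODE M21, no pair of the 10 genes has a 31-base word in common. Capitals mark the identical run, flanked by 18 bases on each side, and all 6 stretches lie in coding sequence. The run of *Nrp1* and *Nrp2* has 16 bases and spans the junction of exons 2 and 3 in both genes. The run of *Plxna1* and *Plxna3* has 26 bases, at chr6:89356941-89356966 (- strand, exon 1) and chrX:74331998-74332023 (+ strand, exon 3). A second run of 26 bases joins *Plxna2*, at chr1:194799883-194799908 (+ strand, exon 24), and *Plxna3*, at chrX:74339350-74339375 (+ strand, exon 25).
Nrp1: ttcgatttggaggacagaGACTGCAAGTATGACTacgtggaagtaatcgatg
Nrp2: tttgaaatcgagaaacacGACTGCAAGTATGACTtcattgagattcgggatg
Plxna1: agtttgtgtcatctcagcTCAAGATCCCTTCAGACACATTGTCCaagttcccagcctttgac
Plxna3: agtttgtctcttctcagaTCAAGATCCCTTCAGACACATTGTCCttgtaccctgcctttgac
Plxna2: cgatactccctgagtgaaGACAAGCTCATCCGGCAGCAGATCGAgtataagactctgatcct
Plxna3: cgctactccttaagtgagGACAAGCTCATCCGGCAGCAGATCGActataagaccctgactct

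Words shared with genes outside the 10 were few. They made up 8.57% of the words of *Plxna1*, where the gene *Gm26811* overlaps 970 bases of exon on the opposite strand, 2.76% for *Plxna2* and 2.61% for *Plxnb1*, which *Gm7628* overlaps over 257 bases on the opposite strand. In the other 7 genes the share was 0% to 0.811%. The sources used here do not give the strand setting of the counting, so the part of *Plxna1* and *Plxnb1* counts that comes from the opposite strand was not tested.

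*Nrp2* (chr1:62703285-62818695, + strand, GRCm38), a co-receptor of class 3 semaphorins and of VEGF-C, was the neuropilin of these cells. Its level was lower at 72 h than at 24 h with either siRNA. The siRNAs lay close together, apart from experiment 3 at 72 h. At 24 h, *Nrp2* stood at 92.6, 75.0 and 68.8 CPM with Gl2-KD in experiments 1, 2 and 3 and at 91.2, 70.1 and 68.2 CPM with Srrm2-KD. At 72 h, *Nrp2* stood at 58.2, 48.4 and 37.9 CPM with Gl2-KD and at 59.0, 51.5 and 55.7 CPM with Srrm2-KD. All 6 libraries of 72 h lay below all 6 of 24 h. The fitted log2 fold change over time was -0.72 (SE 0.11) in Gl2-KD and -0.45 (SE 0.11) in Srrm2-KD. Without experiment 1 these were -0.74 and -0.37.

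In the fit used here, the siRNA comparison of *Nrp2* was small at both times. The study, whose model had the day of RNA processing as covariate, named *Nrp2* among its differentially expressed genes at 72 h. The log2 fold change of Srrm2-KD against Gl2-KD was -0.04 (SE 0.11) at 24 h, where it was lower in 3 of 3 experiments, and 0.22 (SE 0.11) at 72 h, where it was higher in 3 of 3. Experiment 3 gave most of the value at 72 h, with a log2 ratio of 0.56 against 0.02 and 0.09 in experiments 1 and 2, and without experiment 3 the fitted value was 0.05. The comparison of siRNAs at 72 h and the comparison of times in Gl2-KD share the Gl2-KD libraries of 72 h, so the values stand side by side and are not independent.

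*Nrp1* (chr8:128358604-128503363, + strand, GRCm38), the co-receptor best known from blood vessels and sensory axons, was close to undetected. At 24 h it had 19, 14 and 1 estimated counts with Gl2-KD in experiments 1, 2 and 3 and 38, 26 and 0 with Srrm2-KD. At 72 h it had 22, 4 and 7 with Gl2-KD and 41, 15 and 0 with Srrm2-KD. The highest level was 0.255 CPM, in Srrm2-KD of experiment 1 at 72 h. The counts of 0 in experiment 3 allow up to 0.0317 CPM at 24 h and 0.0409 CPM at 72 h, as the level of 3 counts in those libraries, for counting error alone. At this depth no difference between groups was detectable, with log2 fold changes of 0.44 (SE 0.92) and 0.25 (SE 1.06) for the siRNA at 24 h and 72 h.

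Per kilobase of exon, *Nrp2* lay far above *Nrp1* in all 12 libraries. In the 9 libraries with more than 3 counts of *Nrp1*, the ratio ran from 191 to 1306. In the 2 Srrm2-KD libraries of experiment 3, with 0 counts of *Nrp1*, *Nrp1* was taken at 3 counts per library and *Nrp2* was at least 1777-fold higher at 24 h and at least 1124-fold higher at 72 h. On the longest coding transcripts in place of all exons, the ratio ran from 124 to 845 in the 9 libraries, and *Nrp2* was at least 1150-fold and at least 728-fold higher in the other 2. The Gl2-KD library of experiment 3 at 24 h, with 1 count of *Nrp1* and 7536 of *Nrp2*, is given no ratio. How the levels of *Nrp1* and *Nrp2* varied is given next, but the 0.5 CPM added there exceeds the highest level of *Nrp1*, 0.255 CPM. At so few counts, the part of counting error in the shares of *Nrp1* was not tested, and no difference between the genes is read from them. Of the sum of squares of log2(CPM + 0.5) over the 12 libraries, time took 67.9% in *Nrp2* and 0.183% in *Nrp1*, and the experiment took 21.05% and 76.7%. Over all genes tested the medians were 6.12% for time and 54.2% for the experiment.

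**Figure D1:**
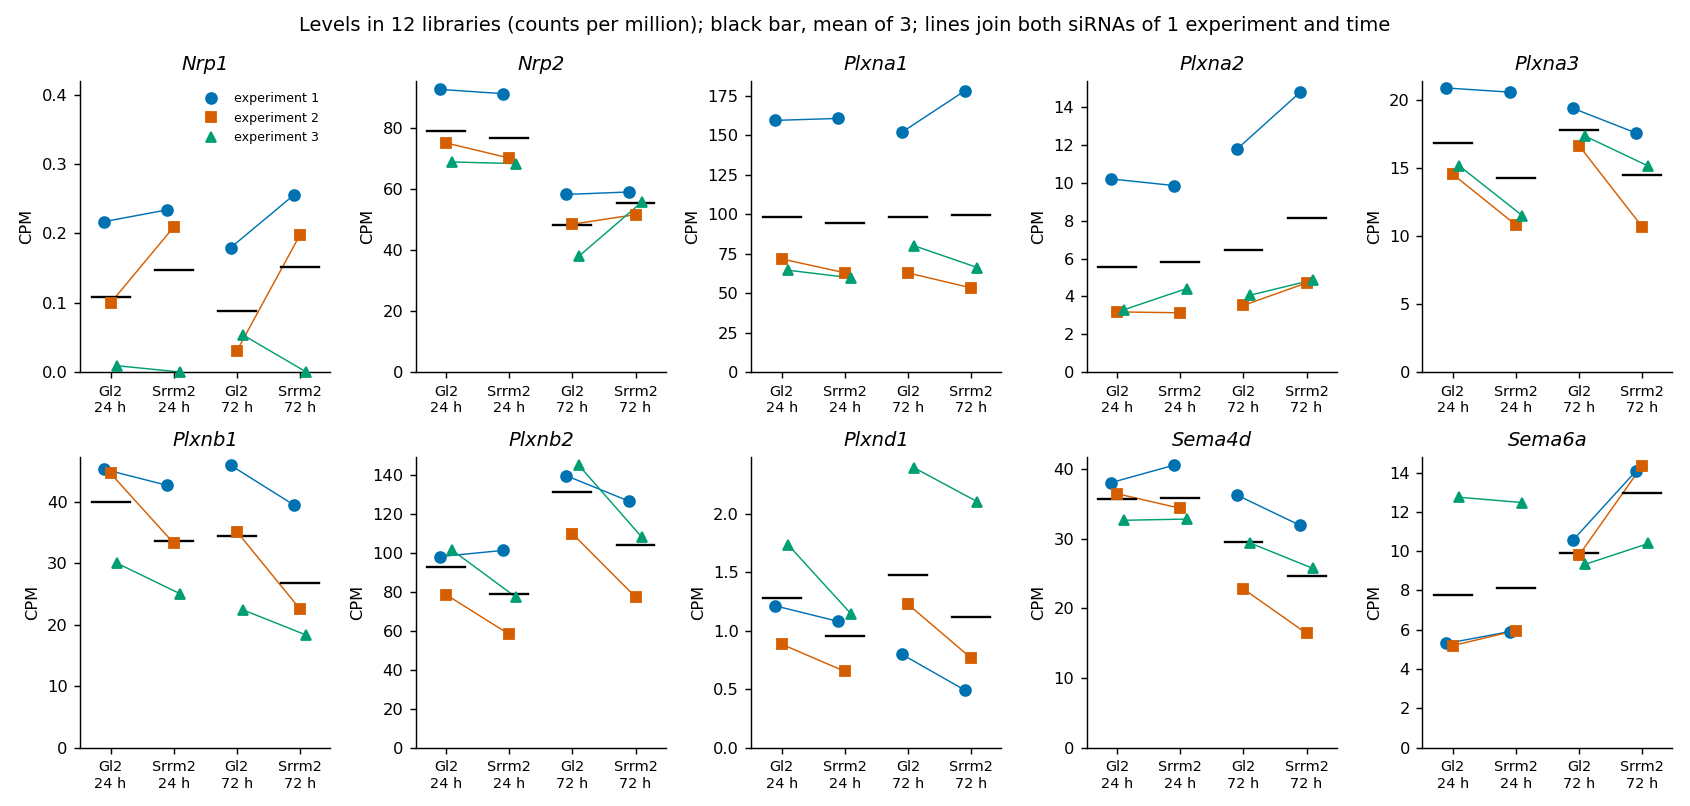
Level of each of the 10 genes in CPM (vertical axes from 0) in every library, by siRNA and time (horizontal axes). Points are libraries, coloured by experiment, black bars are means of 3, and lines join both siRNAs of 1 experiment and time. *Nrp2* is lower and *Plxnb2* higher at 72 h than at 24 h in all 3 experiments, and experiment 1 sits above the others in *Plxna1* and *Plxna2*.

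The class A plexins, which pair with neuropilins, differed between experiments more than between siRNAs or times. This is not particular to them, since over all genes tested the median share of the experiment in the sum of squares was 54.2%. *Plxna3*, at 59.0%, lay near that median. *Plxna1* lies at chr6:89316314-89362620, - strand, GRCm38. At 24 h, *Plxna1* stood at 159, 71.7 and 64.5 CPM with Gl2-KD in experiments 1, 2 and 3 and at 161, 62.9 and 59.7 CPM with Srrm2-KD. At 72 h, *Plxna1* stood at 152, 62.8 and 80.0 CPM with Gl2-KD and at 178, 53.3 and 66.2 CPM with Srrm2-KD. All 4 libraries of experiment 1 were above the other 8, by 2.50-fold on the means, and the experiment took 95.6% of the sum of squares. The log2 fold changes of *Plxna1* were -0.10 (SE 0.13) and -0.09 (SE 0.13) for the siRNA at 24 h and 72 h, and 0.02 (SE 0.13) and 0.03 (SE 0.13) for time in Gl2-KD and Srrm2-KD. Without experiment 1 the 2 siRNA values were -0.15 and -0.26.

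*Plxna2*, the lowest of the class A members, had the same split. At 24 h, *Plxna2* stood at 10.2, 3.18 and 3.29 CPM with Gl2-KD and at 9.86, 3.13 and 4.41 CPM with Srrm2-KD. At 72 h, *Plxna2* stood at 11.8, 3.52 and 4.06 CPM with Gl2-KD and at 14.8, 4.71 and 4.87 CPM with Srrm2-KD. Experiment 1 was 2.99-fold above the others, and its 4 libraries did not overlap with them. Within experiments, *Plxna2* was higher at 72 h than at 24 h in 3 of 3 with either siRNA, by 0.22 (SE 0.15) in Gl2-KD and 0.44 (SE 0.15) in Srrm2-KD on the log2 scale. It was higher with Srrm2-KD in 3 of 3 at 72 h, by 0.34 (SE 0.15), which was 0.34 without experiment 1.

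*Plxna3*, also a receptor subunit for class 3 semaphorins, had the opposite sign for the siRNA. At 24 h, *Plxna3* stood at 20.9, 14.5 and 15.2 CPM with Gl2-KD and at 20.6, 10.8 and 11.5 CPM with Srrm2-KD. At 72 h, *Plxna3* stood at 19.4, 16.6 and 17.3 CPM with Gl2-KD and at 17.6, 10.7 and 15.1 CPM with Srrm2-KD. It was lower with Srrm2-KD in 3 of 3 experiments at both times, with log2 fold changes of -0.27 (SE 0.15) and -0.33 (SE 0.15), while the ranges of the groups overlapped. Without experiment 1 the values were -0.42 and -0.41. The siRNA took 21.6% of its sum of squares, against a median of 3.08% over all genes tested.

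*Plxnb1* and *Plxnb2* bind semaphorins of class 4 directly, and signal to RhoA through PDZ-RhoGEF and LARG. At 24 h, *Plxnb1* stood at 45.3, 44.6 and 30.0 CPM with Gl2-KD and at 42.7, 33.3 and 25.0 CPM with Srrm2-KD. At 72 h, *Plxnb1* stood at 45.9, 35.1 and 22.4 CPM with Gl2-KD and at 39.5, 22.5 and 18.3 CPM with Srrm2-KD. Like *Plxna3*, *Plxnb1* was lower with Srrm2-KD in 3 of 3 experiments at both times, by log2 fold changes of -0.26 (SE 0.13) and -0.37 (SE 0.13). Without experiment 1 these were -0.34 and -0.47. Over time it gave -0.25 (SE 0.13) in Gl2-KD, lower in 2 of 3 experiments, and -0.36 (SE 0.13) in Srrm2-KD, lower in 3 of 3.

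*Plxnb2* (chr15:89155549-89180788, - strand, GRCm38) was the plexin with higher levels at 72 h than at 24 h in all 3 experiments and with either siRNA, as was *Plxna2* at lower levels. At 24 h, *Plxnb2* stood at 98.1, 78.5 and 101 CPM with Gl2-KD and at 101, 58.2 and 77.4 CPM with Srrm2-KD. At 72 h, *Plxnb2* stood at 139.6, 109.8 and 145 CPM with Gl2-KD and at 126, 77.3 and 108 CPM with Srrm2-KD. In Gl2-KD the 72 h libraries were all above those of 24 h, and the log2 ratios of experiments 1, 2 and 3 were close together at 0.51, 0.48 and 0.52. The fit gave 0.50 (SE 0.11) in Gl2-KD and 0.40 (SE 0.11) in Srrm2-KD, where the groups overlapped. Srrm2-KD was lower in 2 of 3 experiments at 24 h, by -0.26 (SE 0.11), and in 3 of 3 at 72 h, by -0.36 (SE 0.11), and without experiment 1 these log2 fold changes were -0.41 and -0.47.

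*Plxnd1*, a receptor of *Sema3e* that shapes growing vessels, was barely expressed. At 24 h, *Plxnd1* stood at 1.21, 0.884 and 1.73 CPM with Gl2-KD and at 1.08, 0.652 and 1.14 CPM with Srrm2-KD. At 72 h, *Plxnd1* stood at 0.799, 1.23 and 2.39 CPM with Gl2-KD and at 0.492, 0.765 and 2.10 CPM with Srrm2-KD. It was lower with Srrm2-KD in all 6 pairs, with log2 fold changes of -0.36 (SE 0.36) and -0.49 (SE 0.36). Leaving out 1 Srrm2-KD library moved these widely, to -0.81 without replicate 1 and -0.12 without replicate 3 at 24 h, and to -0.20 without replicate 1 and -0.87 without replicate 3 at 72 h. The experiments did not agree over time: in Gl2-KD the log2 ratio was -0.60 in experiment 1 and 0.47 and 0.46 in experiments 2 and 3.

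The 2 semaphorins are ligands that stay in the membrane. *Sema4d* encodes the ligand of plexin B1 and *Sema6a* that of class A plexins. At 24 h, *Sema4d* stood at 38.0, 36.4 and 32.6 CPM with Gl2-KD and at 40.5, 34.3 and 32.8 CPM with Srrm2-KD. At 72 h, *Sema4d* stood at 36.2, 22.8 and 29.4 CPM with Gl2-KD and at 31.9, 16.4 and 25.7 CPM with Srrm2-KD. It was lower at 72 h in 3 of 3 experiments with either siRNA, and in Srrm2-KD the 3 libraries of 72 h lay below the 3 of 24 h. The log2 fold changes over time were -0.31 (SE 0.16) in Gl2-KD and -0.57 (SE 0.16) in Srrm2-KD. Experiment 2 had the largest drop, and without it they were -0.13 and -0.38. Between siRNAs *Sema4d* gave -0.0021 (SE 0.16) at 24 h and -0.27 (SE 0.16) at 72 h.

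For *Sema6a* the experiments went apart. At 24 h, *Sema6a* stood at 5.30, 5.20 and 12.7 CPM with Gl2-KD and at 5.91, 5.96 and 12.5 CPM with Srrm2-KD. At 72 h, *Sema6a* stood at 10.5, 9.79 and 9.33 CPM with Gl2-KD and at 14.1, 14.3 and 10.4 CPM with Srrm2-KD. Experiment 3 was the highest at 24 h and the lowest at 72 h, and its log2 ratios over time were -0.45 and -0.26, against 0.99 and 1.25 in experiment 1 and 0.91 and 1.27 in experiment 2. The fit gave 0.46 (SE 0.32) in Gl2-KD and 0.79 (SE 0.32) in Srrm2-KD, and without experiment 3 these were 0.95 and 1.26. The interaction of experiment and time took 42.4% of the sum of squares of *Sema6a*, against a median of 9.54% over all genes tested. At 72 h *Sema6a* was higher with Srrm2-KD in 3 of 3 experiments, by 0.41 (SE 0.32), which became 0.18 without replicate 2 and 0.73 without replicate 3 of Srrm2-KD.

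**Figure D2:**
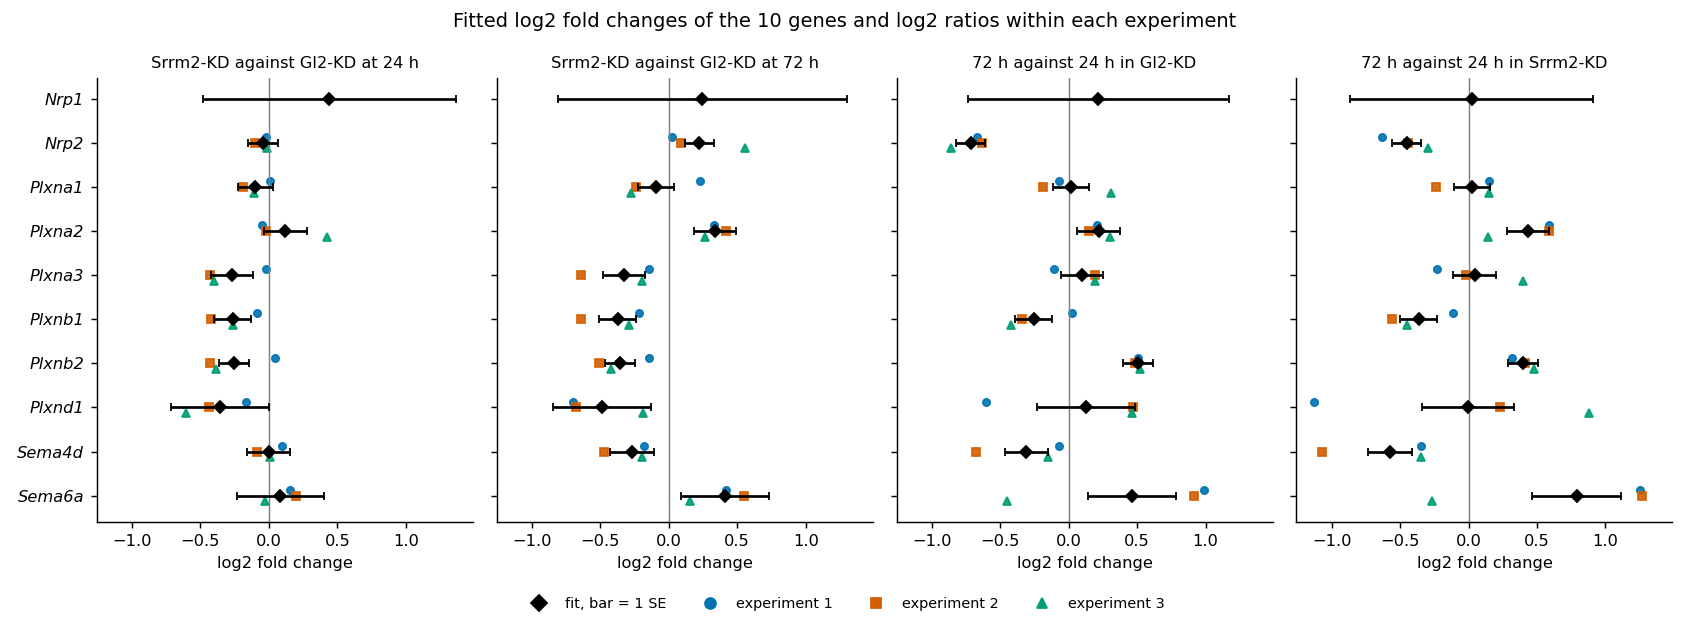
Log2 fold changes of the 10 genes in 4 comparisons (horizontal axes). Black diamonds are fitted values with bars of 1 SE, and coloured points are the log2 ratios within experiments, which are left out for *Nrp1* because some of its counts are 0. *Plxna3*, *Plxnb1* and *Plxnd1* lie left of 0 at both times with Srrm2-KD, *Nrp2* lies left of 0 over time, and the points of *Sema6a* and *Plxnd1* scatter over time.

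**Figure D3:**
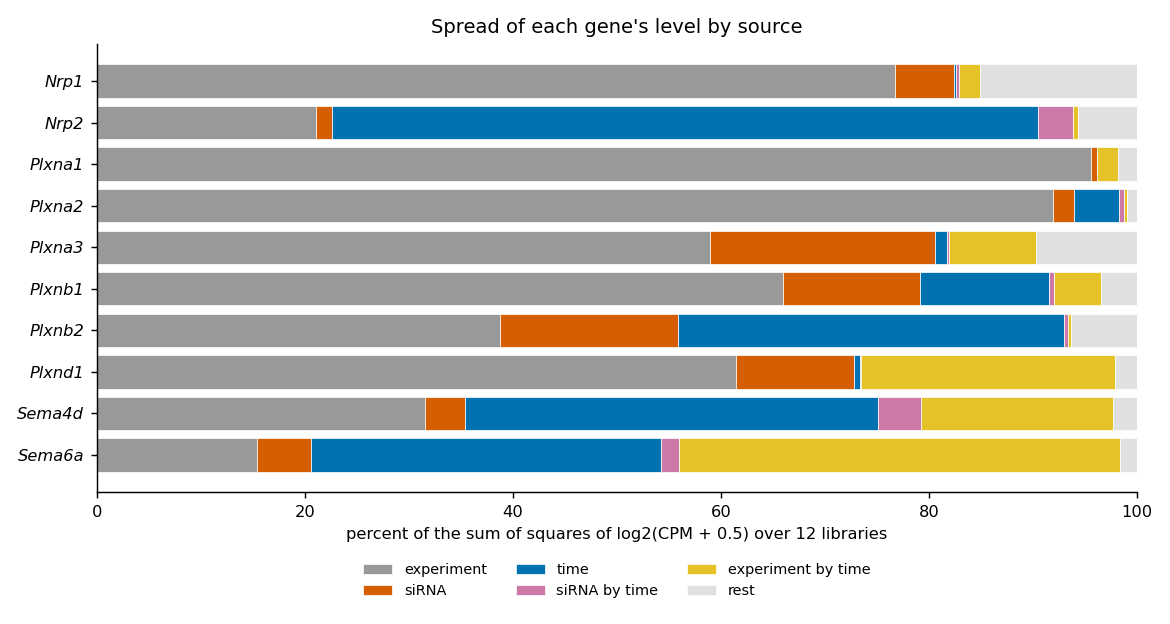
Share of the sum of squares of log2(CPM + 0.5) over 12 libraries that goes with the experiment, the siRNA, the time, their interactions and the rest, for each of the 10 genes (horizontal axis, percent). The experiment takes 95.6% in *Plxna1* and 91.9% in *Plxna2*, and time takes 67.9% in *Nrp2*.

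As counts over the 10 genes, 4 (*Nrp2*, *Plxna3*, *Plxnb1*, *Plxnd1*) were lower in 3 of 3 experiments at 24 h after Srrm2-KD while 0 were higher, where 15.4% and 17.3% of the 19410 genes tested did so. At 72 h, 5 (*Plxna3*, *Plxnb1*, *Plxnb2*, *Plxnd1*, *Sema4d*) were lower in 3 of 3 and 3 (*Nrp2*, *Plxna2*, *Sema6a*) were higher, against 23.1% and 18.8% of all genes tested. *Plxna3*, *Plxnb1* and *Plxnd1* were lower in 3 of 3 at both times, as were 7.25% of all genes tested. Over time, groups that did not overlap were found in Gl2-KD for 1 gene that was higher at 72 h (*Plxnb2*) and 1 that was lower (*Nrp2*), where 3.91% and 3.36% of all genes tested did so. In Srrm2-KD they were found for 0 that were higher and 2 that were lower (*Nrp2*, *Sema4d*), against 3.58% and 3.9%. Experiment 1 lay above all other libraries in 3 of the 10 genes (*Plxna1*, *Plxna2*, *Plxna3*) and below them in 0, against 16.7% and 13.7% of all genes tested. Since the 10 genes were chosen with these levels known, nothing is read from these counts.

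All 10 genes passed the filter on low counts and were part of the edgeR quasi-likelihood fit of 19410 genes. For Srrm2-KD against Gl2-KD, 0% of all genes tested passed a Benjamini-Hochberg adjusted p of 0.05 at 24 h and 0% at 72 h, *Srrm2* included. At an unadjusted p below 0.05 there were 508 and 2498 genes, and DESeq2 called 25 and 542 genes. These counts depend on the block. In edgeR with a block on each pair of experiment and time, 0 genes were called at 24 h and 724 at 72 h. With the libraries of the comparison fitted alone, 0 and 323 were called. The difference of the siRNA effect between times was called for 0% of all genes tested, with 319 at an unadjusted p below 0.05, and by DESeq2 for 2. For 72 h against 24 h, 1.45% were called in Gl2-KD and 0.551% in Srrm2-KD. Of the 10 genes, 1 was past this threshold in edgeR, *Nrp2* over time in Gl2-KD. Leaving out libraries or experiments made that count 0 to 2, with 0 to 387 of all genes called. It is given as a count only, since *Nrp2* was chosen with its levels in these libraries known. The study's own model had the day of RNA processing as covariate, which the labels used here do not give, and the experiment took its place, so the fit here is not that of the study.

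By level per length, the receptors of these cells were mainly *Plxnb2*, *Plxna1* and *Nrp2*. Their means over 12 libraries were 13.2 ± 3.42 (SD), 10.8 ± 5.38 and 5.46 ± 1.38 CPM per kilobase of exon. *Sema4d* followed at 4.09 ± 0.898, *Plxnb1* at 3.52 ± 1.04, *Plxna3* at 2.01 ± 0.452, *Sema6a* at 1.10 ± 0.387, *Plxna2* at 0.378 ± 0.235, *Plxnd1* at 0.165 ± 0.0803 and *Nrp1* at 0.0127 ± 0.0103. Of the 9 pairs of neighbours in this order, 8 had ranges that overlapped, and *Plxnd1* and *Nrp1* had ranges that did not. Within libraries the higher neighbour was higher in 9 of 12 for *Plxnb2* over *Plxna1*, *Sema4d* over *Plxnb1* and *Plxna2* over *Plxnd1*, and in 11 or 12 of 12 for the other 6 pairs. With the length of the longest coding transcript in place of all exons, *Plxna1* was above *Nrp2* in only 5 of 12 libraries, so the order of those 2 rests on the length used.

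Seen as shares of the summed level per kilobase of all 9 plexins, *Plxnb2* held 41.3% ± 9.02 (SD, n = 3) in Gl2-KD at 24 h and 50.3% ± 7.70 at 72 h, while with Srrm2-KD it held 39.6% ± 6.91 at 24 h and 47.0% ± 8.49 at 72 h. *Plxna1* held 34.8% ± 9.38 at 24 h and 30.3% ± 7.43 at 72 h with Gl2-KD, and 37.2% ± 7.51 and 34.2% ± 9.50 with Srrm2-KD. *Plxnb1* held 14.2% ± 3.66 at 24 h and 10.5% ± 3.16 at 72 h with Gl2-KD, and 13.7% ± 3.27 and 9.48% ± 2.14 with Srrm2-KD. *Plxnb2* and *Plxna1* together with *Plxnb1* thus made up most of the plexin RNA per length in every group. Within experiments the share of *Plxnb2* was higher at 72 h than at 24 h in 3 of 3 with either siRNA, going with Gl2-KD from 32.7% to 41.9%, from 40.4% to 51.8% and from 50.7% to 57.1% in experiments 1, 2 and 3. The shares of *Plxna1* and *Plxnb1* were lower at 72 h in 3 of 3 with either siRNA, where shares of 1 total are not independent.

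**Figure D4:**
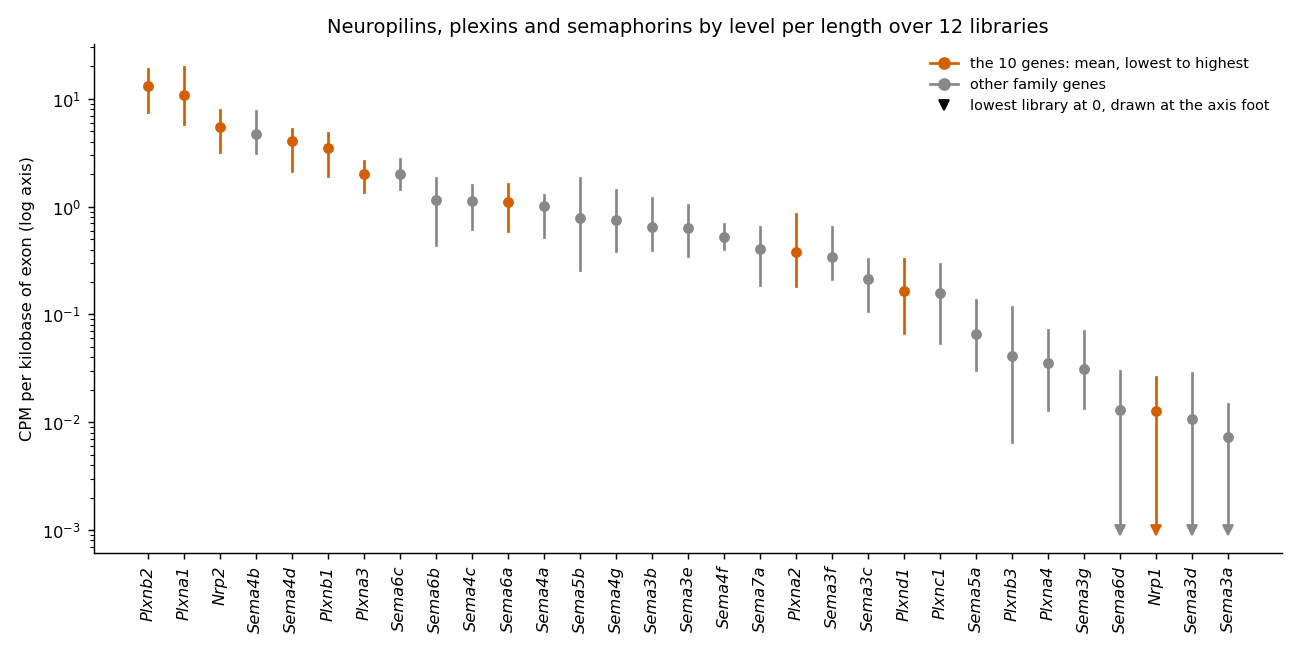
Level per kilobase of exon (CPM per kilobase, log axis) of the 10 genes, in orange, and of the other plexins and semaphorins, in grey, in falling order. Points are means over 12 libraries and lines run from the lowest to the highest library, with a triangle at the axis foot where the lowest is 0. *Plxnb2*, *Plxna1* and *Nrp2* lead the family and *Nrp1* lies near its end.

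The genes whose levels followed *Nrp2* most closely over the 12 libraries were *Foxd3* (Pearson's r = 0.97), a transcription factor gene of the early embryo, *Slc27a2* (r = 0.94), a fatty acid transport gene, and *Accsl* (r = 0.93). For *Nrp1* they were *Fgl1* (r = 0.96), *Lhfpl4* (r = 0.92) and *Npas3* (r = 0.91), of which *Fgl1* and *Npas3* had mean levels of 0.203 and 0.172 CPM. The 12 points share siRNA, time, experiment and depth, so these values only describe likeness.

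The rest of the pathway was counted from 4 lists with 70 genes, of which 69 were tested. The lists were written with earlier results of these libraries known, so the adjusted p-values of their genes are given as descriptions. For Srrm2-KD against Gl2-KD, edgeR called 0 of the 69 in either direction at 24 h and 0 at 72 h. Over time it called 2 in Gl2-KD and 2 in Srrm2-KD, all lower at 72 h, and they were *Sema3e* and *Dpysl3* in both. The medians of the 69 log2 fold changes were -0.07 and -0.14 for the siRNA at 24 h and 72 h and -0.09 and -0.13 for time in Gl2-KD and Srrm2-KD, where the medians of all genes tested were 0.01, -0.02, 0.02 and 0.00.

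*Sema3e* encodes a secreted ligand of plexin D1. Its level at 24 h was 9.58, 6.96 and 6.44 CPM with Gl2-KD and 9.34, 6.85 and 5.53 CPM with Srrm2-KD, and at 72 h 6.38, 3.83 and 3.75 CPM and 5.13, 3.72 and 3.25 CPM. In both siRNA groups the 72 h libraries lay below those of 24 h. *Sema3e* fell by log2 fold changes of -0.74 (SE 0.15) in Gl2-KD (edgeR, adjusted p = 0.0400) and -0.84 (SE 0.15) in Srrm2-KD (edgeR, adjusted p = 0.0467). Over the alternatives, edgeR, DESeq2 and limma, the adjusted p ran from 2.14e-06 to 1 and from 2.96e-07 to 1.00. In Gl2-KD the call was kept without replicate 1 or 3 of Srrm2-KD at 24 h or replicate 1 of Srrm2-KD at 72 h and was lost without any other library or experiment, at -0.82 to -0.66. In Srrm2-KD it was kept only without replicate 3 of Gl2-KD at 72 h and was otherwise lost, at -0.89 to -0.80.

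*Dpysl3* encodes a collapsin response mediator protein, a family that carries semaphorin signals to microtubules. Its level at 24 h was 72.4, 59.3 and 44.0 CPM with Gl2-KD and 77.4, 57.3 and 42.2 CPM with Srrm2-KD, and at 72 h 48.9, 36.3 and 27.6 CPM and 43.4, 33.7 and 30.3 CPM. *Dpysl3* fell in 3 of 3 experiments by log2 fold changes of -0.65 (SE 0.10) in Gl2-KD (edgeR, adjusted p = 0.0153) and -0.69 (SE 0.10) in Srrm2-KD (edgeR, adjusted p = 0.0317). The groups overlapped, with experiment 1 at 72 h above experiment 3 at 24 h with either siRNA. Over the alternatives, edgeR, DESeq2 and limma, the adjusted p ran from 3.95e-08 to 1 and from 2.00e-08 to 1.00. In Gl2-KD the call was lost without replicate 1 or 2 at 24 h, without replicate 2 or 3 at 72 h, and without experiment 2 or 3, at -0.68, -0.61, -0.64, -0.62, -0.64 and -0.64. In Srrm2-KD it was lost without replicate 1 or 3 of Gl2-KD at 24 h, replicate 1 or 2 of Srrm2-KD at either time, and experiment 1 or 2, at -0.71 to -0.62.

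Among the other plexins, *Plxnc1*, *Plxna4* and *Plxnb3* reached at most 2.43, 1.01 and 0.764 CPM. *Plxna4* at 72 h was 0.408, 0.184 and 0.274 CPM with Gl2-KD and 1.01, 0.568 and 0.764 CPM with Srrm2-KD. These groups did not overlap, as for 2.99% of all genes tested that were higher, and the log2 fold change was 1.45 (SE 0.33) with an adjusted p of 0.144 in edgeR, which over the alternatives ran from 0.0107 with DESeq2 to 1.00. In edgeR with a block on each pair of experiment and time it was 0.0291. At 24 h *Plxna4* gave 0.37 (SE 0.32). Of the 18 other semaphorins, the 3 with the highest mean levels were *Sema4b* at 17.6 to 43.8 CPM, *Sema6c* at 8.57 to 16.4 CPM and *Sema4g* at 3.35 to 12.3 CPM.

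*Sema6c*, a membrane-bound ligand related to *Sema6a*, had the opposite sign for the siRNA. At 72 h it was 12.4, 14.0 and 16.4 CPM with Gl2-KD and 9.07, 8.57 and 9.79 CPM with Srrm2-KD, and at 24 h 11.9, 13.9 and 12.8 CPM and 11.7, 11.7 and 10.4 CPM. The groups did not overlap at either time, as for 1.55% and 3.67% of all genes tested that were lower at 24 h and 72 h. The log2 fold changes were -0.19 (SE 0.14) at 24 h and -0.64 (SE 0.14) at 72 h, the latter with an adjusted p of 0.138 in edgeR that ran from 0.00153 with DESeq2 to 1.00 over the alternatives. In edgeR it was 0.0244 with a block on each pair of experiment and time, and 0.0470 with the libraries of 72 h fitted alone.

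In the list of co-receptors and VEGF ligands, 17 of 18 genes were tested and edgeR's fit of all libraries called 0 of them in the siRNA and time comparisons. Over time, DESeq2 called the integrin gene *Itga1* with either siRNA and the adhesion gene *Nrcam* in Srrm2-KD, and in edgeR *Itga1* and *Vegfa* were called without experiment 1, *Itga1* without replicate 1 of Gl2-KD at 72 h, and *Nrcam* without experiment 3. With the libraries of 72 h fitted alone, *Vegfb* was called for the siRNA. Its highest genes were *Itgb1*, the integrin beta 1 chain, at 121 to 174 CPM, and the growth factor genes *Vegfb* and *Vegfa* at 23.3 to 78.1 and 9.68 to 48.1 CPM. The 31 cytoplasmic partners were led by *Cfl1*, *Rhoa* and *Rac1*, the cofilin and GTPase genes at the end of the pathway, at 641 to 1346, 266 to 356 and 121 to 179 CPM. Apart from *Dpysl3*, 0 of them were called in edgeR's fit of all libraries. *Sh3bp1*, a GTPase-activating protein gene, was called for the siRNA at 72 h by DESeq2 (adjusted p = 0.00208), with a block on experiment and time in edgeR (adjusted p = 0.0244), with those libraries fitted alone, and without replicate 1 of Srrm2-KD at 24 h, at log2 fold changes of -0.61 to -0.59. The block on experiment and time also called *Farp1*, and over time DESeq2 called *Rnd3* and *Dpysl4* in Gl2-KD and *Dpysl5* and *Limk1* in Srrm2-KD.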

How the data were processed

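PolyA+ RNA from 12 cultures of 1 mESC line was sequenced by the authors as paired-end stranded libraries, and the authors quantified transcripts with Kallisto (version 0.46.1, in the submitters' processing notes, with build mm10) and GENCODE M24. The deposited table gives 1 estimated count per gene and library, with 33.9% to 43.1% of values not whole. The sources used here do not give how transcripts were summed to genes.

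The estimated counts were rounded and scaled by TMM to CPM (counts per 1000000). Genes passing filterByExpr (minimum count 10, minimum total 15) numbered 19410, and all 12 libraries were fitted with edgeR 4.0.16 (R 4.3.3; glmQLFit and glmQLFTest) with group and experiment as terms, at a Benjamini-Hochberg adjusted p of 0.05. The common biological coefficient of variation was 0.220 on 6 residual degrees of freedom. The SE of a log2 fold change comes from this fit. The experiment number in the labels marks a shared experiment. Deviations from group means correlated at 0.281 to 0.747 in all 18 pairs with the same number and at -0.628 to 0.231 in 36 other pairs. The scripts were tested on simulated counts with changes planted in Srrm2-KD at 72 h and no differences between experiments. That test therefore does not bear on the block.

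The members and gene lists were chosen with earlier results of these data known. Named beside the members were the pathway genes called, the 3 highest of each list by mean CPM, and the 3 genes most like *Nrp1* and *Nrp2* by Pearson's r of log2(CPM + 0.5). *Plxna4* and *Sema6c* were singled out at 72 h after their values were seen. Alternatives were DESeq2 1.42.0, limma-voom (limma 3.58.1), other scalings, no filter, other blocks, and fits without single libraries or experiments. Gene lengths, shared words and promoters come from GENCODE M21 and RefSeq on GRCm38, and 42156 of 42450 gene IDs matched M21. Counting intervals and floors cover counting error only. The p-values of the main fit rest on the spread left after group and experiment are fitted, with 3 experiments on 1 cell line.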

Additional observations from a re-analysis of the deposited data

Results flagged for a closer look

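*Nrp2* was lower with Srrm2-KD than with Gl2-KD in 3 of 3 experiments at 24 h and higher in 3 of 3 at 72 h. The log2 ratios of experiments 1, 2 and 3 were -0.02, -0.10 and -0.01 at 24 h. At 72 h they were 0.02, 0.09 and 0.56. All but the last were smaller in size than the SE of the fitted values, 0.11, so most of these signs carry little. The siRNA effect at 72 h minus that at 24 h was 0.27 (SE 0.15) on the log2 scale in edgeR's fit, where 0 of all genes tested were called for such a difference. The opposite directions themselves were not tested, since *Nrp2* was chosen with its levels known. Without experiment 3 the value was 0.12.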

How the results depend on the processing

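Of 1170 log2 fold changes of the 10 genes under alternatives, 1115 lay within 1 SD between experiments of the reported value, 55 moved by more (52 of them with libraries or experiments left out) and 94, in 22 pairs of gene and comparison, had the opposite sign to the reported one, at values that were not called. Relative to library totals alone, TMM shifted the median log2 level of a library by -0.112 to 0.0970. Without the replicate block, a fit that ignores the pairing by experiment, 0 of all genes tested were called over time with either siRNA. These include 0 of the 10 genes and 0 of the pathway genes. A block on every combination of experiment and time gave 4 called pathway genes for the siRNA at 72 h, with 724 of all genes called. Counts over the 10 genes, which were chosen on these libraries, support nothing. Of them, 2 were called over time in Gl2-KD by DESeq2, limma-voom, legacy=FALSE and without the filter, and DESeq2 called 3 in Srrm2-KD. Over all genes, the same settings called 1338, 482, 624 and 420 in Gl2-KD, and DESeq2 called 1061 in Srrm2-KD. DESeq2 called 3 pathway genes for the siRNA at 72 h, 8 over time in Gl2-KD and 6 in Srrm2-KD. Among all genes it called 542, 1338 and 1061. With the libraries of a comparison fitted alone, 3, 1 and 0 pathway genes were called, against 323, 158 and 0 of all genes. Leaving out libraries or experiments gave 0 to 2 of the 10 genes over time in Gl2-KD and 0 to 1 in Srrm2-KD. For pathway genes it gave 0 to 1 for the siRNA at 72 h, 0 to 3 over time in Gl2-KD and 0 to 2 in Srrm2-KD. Over all genes it gave 0 to 55 for the siRNA at 72 h, 0 to 387 over time in Gl2-KD and 0 to 135 in Srrm2-KD. The cause was not tested. *Nrp1*, at 0 to 41 counts, is limited by depth.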
